A study of Rattus norvegicus with 8 samples.

Results

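The LIM-only genes *Lmo1*, *Lmo2*, *Lmo3* and *Lmo4*, the LIM domain-binding genes *Ldb1* and *Ldb2*, and the FHL genes *Fhl1* and *Fhl2* are 8 of the 22601 genes measured in the hippocampus of control rats, PTZ-kindled rats and PTZ-kindled rats given Q808. They were found by their NCBI GeneIDs, which are 245979, 362176, 497798, 362051, 309447, 289664, 25177 and 63839 in the same order. *Lmo4* and *Fhl2* were selected on their measured values in these libraries, because both had higher levels in PTZ than in Con. and lower ones in Q808. Their values are therefore given as a description with no test, and tests are given only for the other 6 genes. All 8 genes passed the limit of a mean of 0.1 FPKM over the 8 libraries, as did 15593 of the 22601 genes.

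A LIM domain is a zinc-binding module that holds other proteins and does not bind DNA by itself. LMO proteins consist of little else, and LDB proteins dimerize and bind the LIM domains of LMO proteins and of LIM homeodomain factors, so that LMO and LDB proteins together assemble complexes with GATA and basic helix-loop-helix factors. LMO4 can compete with LIM homeodomain factors for LDB1, and it is known in brain from forebrain neurons, whereas LMO2 is best known from blood and vessel cells. FHL proteins carry a row of LIM domains as well, and FHL2 is known as a cofactor of FOS and JUN, CREM and serum response factor and as a partner of actin-bound and adhesion proteins.

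The rats were wild-type Wistar rats of 180 to 220 g. PTZ (pentylenetetrazole) is a GABA-A receptor blocker that causes convulsions, and kindling is the growing response of rats to low doses of it given again and again. The PTZ group (3 libraries) and the Q808 group (2 libraries) were injected with PTZ at 35 mg/kg every 48 h over 28 days, which makes 14 injections, and with 60 mg/kg on the last day, while the Con. group (3 libraries) was injected with saline. Over the next 28 days the Q808 group was gavaged daily with 30 mg/kg Q808, an anticonvulsant candidate, and the Con. and PTZ groups with its solvent. The PTZ and Q808 rats were then given PTZ once more, so both were sampled after a late PTZ dose and the Con. rats were not. Each library came from the hippocampi of 1 rat without the meninges. The values are FPKM (fragments per kilobase of transcript, scaled to the mapped fragments of the library), which can be compared between genes because they are per length.

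The labelled tissue was checked by marker genes. In Con.-3, PTZ-3 and Q808-1 the 6 striatum markers had a mean log2(FPKM + 0.1) of 6.20 to 7.35, against 1.56 to 2.48 in the other 5 libraries, and their summed level was 713 to 1453 FPKM against 51.7 to 67.5 FPKM. *Neurod6*, a pyramidal cell marker, was lower in the same 3 libraries, at 7.29 to 24.7 FPKM against 60.8 to 130 FPKM, and *Prox1*, a dentate granule cell marker, was at 2.84 to 4.04 FPKM against 12.2 to 16.6 FPKM. These 3 libraries, 1 of each group, are called striatum-high here and the other 5 striatum-low, and values within these sets are given beside the results of most genes below. Of the other pyramidal markers, *Wfs1*, *Fibcd1*, *Grik4* and *Bok* were also lower in the striatum-high libraries. So was the dentate marker *C1ql2*. The pyramidal marker *Pou3f1* and the dentate marker *Dsp* overlapped between the sets. *Calb1*, a dentate marker, went the other way in Con.-3 (87.7 FPKM) and PTZ-3 (112 FPKM). It was at 66.7 to 87.0 FPKM in the striatum-low libraries and at 26.0 FPKM in Q808-1. The part of the striatum signal in any difference between groups was not tested.

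The levels of the LIM genes were set against all 22601 genes, of which 15593 reached a mean of 0.1 FPKM. *Lmo4* had the highest level of the 8 genes in each group, and its mean over all libraries was above that of 96.4% of all genes. *Fhl2* had the lowest level of the 8 in each group and lay above 65.5% of all genes, a share that includes the genes under that limit. In Con. the order of mean levels was *Lmo4*, *Lmo3*, *Fhl1*, *Ldb1*, *Lmo1*, *Lmo2*, *Ldb2* and *Fhl2*. The libraries of *Lmo4* and *Lmo3*, of *Lmo3* and *Fhl1*, and of *Ldb2* and *Fhl2* did not overlap there, and the other neighbours in that order did. In PTZ *Lmo3* had moved to the fourth place, behind *Fhl1* and *Ldb1*, whose libraries overlapped with its own, and *Fhl2* overlapped with *Lmo2*. In Q808 the order was *Lmo4*, *Lmo3*, *Ldb1*, *Fhl1*, *Lmo1*, *Lmo2*, *Ldb2* and *Fhl2*, and only the first and the last gene were apart from their neighbours.

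**Figure D1:**
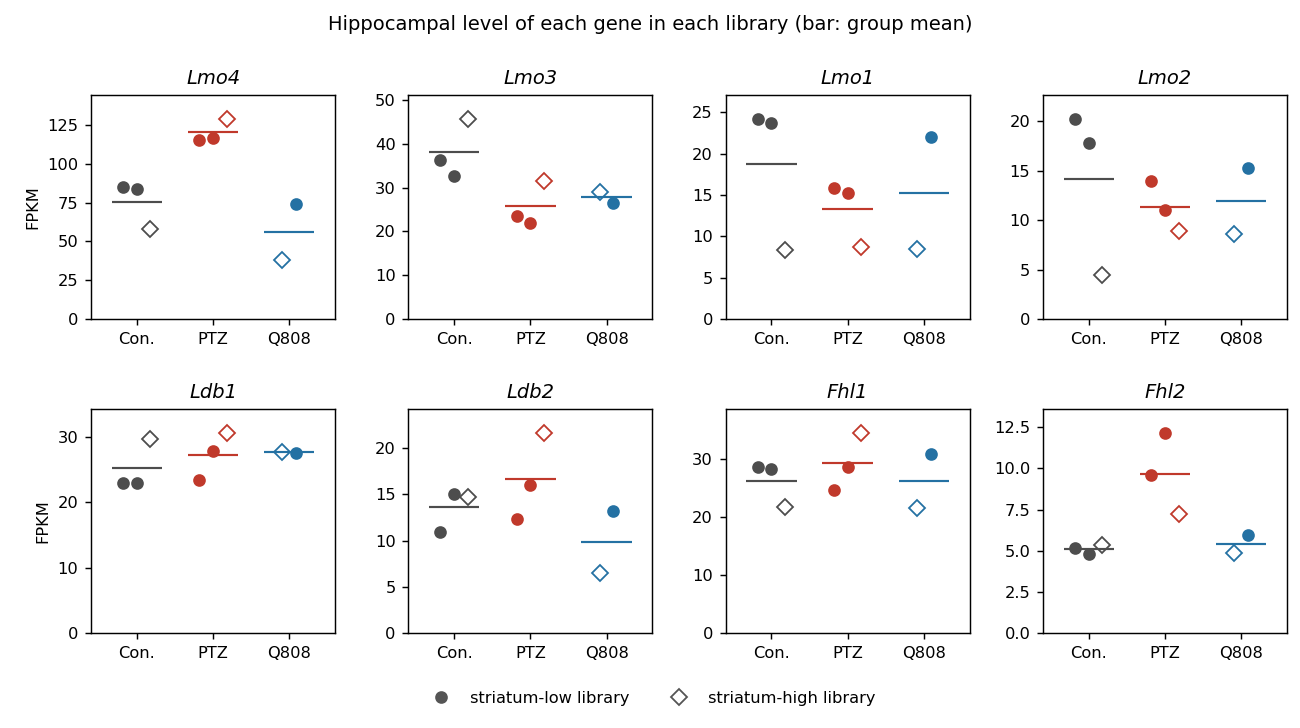
Level of the 8 genes in FPKM on a linear axis, 1 point per library, with a bar at the group mean and open diamonds for the 3 striatum-high libraries. *Lmo4* lies at 115 to 129 FPKM in PTZ, above all Con. and Q808 libraries, and *Lmo1* and *Lmo2* lie lowest in the open diamonds.

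The sequences before the transcription starts of *Lmo4*, *Fhl2* and *Fhl1* are shown because *Lmo4* and *Fhl2* are the genes chosen for their pattern over the groups and *Fhl1* is the close relative of *Fhl2*. They are the 250 bases before the start from RefSeq on GRCr8, read on the gene's strand, for the minus strand at chr2:235941276-235941525 (*Lmo4*), chr9:52954541-52954790 (*Fhl2*, start 1) and chr9:52923327-52923576 (*Fhl2*, start 2), and for the plus strand at chrX:139638246-139638495 (*Fhl1*, start 1). Capitals mark letters that match a CArG box (the site of serum response factor), a TATA box (TATAA), a GC box (GGGCGG) or the first letters of a cAMP response element (TGACG), on either strand.

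Lmo4: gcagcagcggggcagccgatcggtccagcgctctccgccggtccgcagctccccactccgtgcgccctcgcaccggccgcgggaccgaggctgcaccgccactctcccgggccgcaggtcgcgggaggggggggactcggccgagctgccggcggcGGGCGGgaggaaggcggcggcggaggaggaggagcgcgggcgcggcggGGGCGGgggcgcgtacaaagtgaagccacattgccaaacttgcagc
Fhl2 start 1: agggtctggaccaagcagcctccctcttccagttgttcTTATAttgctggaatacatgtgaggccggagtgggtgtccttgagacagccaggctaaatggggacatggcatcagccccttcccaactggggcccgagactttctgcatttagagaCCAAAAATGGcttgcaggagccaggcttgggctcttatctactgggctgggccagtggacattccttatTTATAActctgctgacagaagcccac
Fhl2 start 2: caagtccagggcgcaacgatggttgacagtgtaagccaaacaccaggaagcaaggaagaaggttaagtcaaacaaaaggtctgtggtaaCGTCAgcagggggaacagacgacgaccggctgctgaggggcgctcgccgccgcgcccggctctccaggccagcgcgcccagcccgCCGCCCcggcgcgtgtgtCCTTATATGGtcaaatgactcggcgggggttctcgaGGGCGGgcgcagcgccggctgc
Fhl1 start 1: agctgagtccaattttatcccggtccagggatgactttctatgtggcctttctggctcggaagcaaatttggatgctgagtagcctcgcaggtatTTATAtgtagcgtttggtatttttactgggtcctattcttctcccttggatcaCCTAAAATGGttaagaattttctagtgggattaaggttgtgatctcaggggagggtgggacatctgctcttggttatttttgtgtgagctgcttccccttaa

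A CArG box match stands in both *Fhl2* windows, at bases -95 to -86 as CCAAAAATGG and at -58 to -49 as CCTTATATGG, and in the first of the *Fhl1* windows, at -102 to -93 as CCTAAAATGG. The match of the second *Fhl2* window overlaps the letters of a TATA box on the other strand. The search covered each window of the table whole, which runs from 250 bases before to 50 bases after the start, and such a match is in 1.64% of the 33469 windows of that length. None was found in the *Lmo4* window or in those of *Lmo1* and *Ldb1*, which hold GC boxes, as 33.1% of all windows do. TATA box letters are in 26.2% of all windows, the cAMP response element half-site of the second *Fhl2* window is in 21.2%, and the full element TGACGTCA is in 1.83% and in none of the 7 windows of these genes. The table held windows for 5 of the 8 genes, and *Lmo2*, *Lmo3* and *Ldb2* were without one. The match is one of letters, and FPKM per gene do not show which start was used.

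*Lmo4* had its highest levels in the PTZ group, the pattern for which it was chosen. Its levels were 84.8, 84.0 and 58.0 FPKM in Con. (75.6 ± 15.3, SD, n = 3), 115, 117 and 129 FPKM in PTZ (120 ± 7.63, n = 3), and 38.3 and 74.2 FPKM in Q808 (56.3 ± 25.4, n = 2). No PTZ library overlapped with a Con. or a Q808 library, whereas the Q808 and Con. libraries overlapped. On the log2(FPKM + 0.1) scale the difference was 0.69 ± 0.17 (SE) for PTZ against Con., or 1.61-fold, -1.17 ± 0.29 for Q808 against PTZ, and -0.48 ± 0.34 for Q808 against Con. In bulk tissue, fewer cells of a type and less RNA per cell cannot be told apart. Con.-3 and Q808-1, the lowest *Lmo4* libraries of their groups, are both striatum-high, and PTZ-3, the highest PTZ library, is striatum-high too. Within the striatum-low libraries *Lmo4* differed by 0.46 between PTZ and Con. and by -0.64 between Q808 and PTZ on the log2 scale, and within the striatum-high libraries the differences were 1.15 and -1.75. Without Con.-3 the PTZ difference was 0.51, which is under 1.5-fold, and without Q808-1 the Q808 difference from PTZ was -0.69. Without Q808-2 the Q808 difference from Con. was -0.96. The study also measured *Lmo4* by qRT-PCR (quantitative PCR of its transcript), which did not reproduce this FPKM pattern. For PTZ against Con. the paper reports no significant *Lmo4* change by qRT-PCR. For Q808 against PTZ it reports a qRT-PCR change opposite to its sequencing, with more *Lmo4* after Q808. The reason for this disagreement was not tested.

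The other LIM-only genes did not share the pattern of *Lmo4*. *Lmo3*, the second most abundant, was at 36.3, 32.5 and 45.7 FPKM in Con. (38.2 ± 6.78), 23.6, 22.0 and 31.5 FPKM in PTZ (25.7 ± 5.11), and 29.0 and 26.5 FPKM in Q808 (27.8 ± 1.78). Every PTZ and every Q808 library lay below every Con. library, and the PTZ and Q808 libraries overlapped. The difference of PTZ from Con. was -0.57 ± 0.19 on the log2 scale, with an unadjusted limma p under 0.05 and an adjusted p of 0.9987. At 0.672-fold this was just short of the 1.5-fold limit, so *Lmo3* was not called. For Q808 against Con. the difference was -0.44 ± 0.19 with an adjusted p of 0.9006 in limma. Q808 differed from PTZ by 0.13 ± 0.21 (adjusted p = 0.9522 in limma). Within the striatum-low libraries *Lmo3* differed by -0.59 between PTZ and Con., and within the striatum-high pair by -0.53. It passed both limits when Con.-1 (-0.60), Con.-2 (-0.68) or PTZ-3 (-0.73) was left out, and when all 3 striatum-high libraries were left out (-0.59, adjusted p = 0.0827 by limma). It passed neither limit when Con.-3 (-0.44), PTZ-1 (-0.52) or PTZ-2 (-0.47) was left out. The unadjusted limma p was then 0.05667, 0.06732 and 0.06918 in the same order.

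*Lmo1* and *Lmo2* had overlapping groups in every comparison and were lowest in the striatum-high libraries. *Lmo1* was at 24.2, 23.8 and 8.34 FPKM in Con. (18.8 ± 9.04), 15.9, 15.3 and 8.73 FPKM in PTZ (13.3 ± 3.97), and 8.50 and 22.0 FPKM in Q808 (15.3 ± 9.55). *Lmo2* was at 20.2, 17.8 and 4.48 FPKM in Con. (14.2 ± 8.48), 14, 11.0 and 8.85 FPKM in PTZ (11.3 ± 2.57), and 8.63 and 15.2 FPKM in Q808 (11.9 ± 4.67). For *Lmo1* they spanned 8.34 to 8.73 FPKM against 15.3 to 24.2 FPKM in the others, and for *Lmo2* 4.48 to 8.85 FPKM against 11.0 to 20.2 FPKM. These were the only genes of the 8 in which the sets did not overlap, and 24.8% of all genes tested were apart in the same way. Neither gene was called between groups. For PTZ against Con. the log2 difference was -0.39 ± 0.45 for *Lmo1* (adjusted p = 0.9987 by limma) and -0.08 ± 0.55 for *Lmo2* (adjusted p = 0.9987 by limma). For Q808 against PTZ it was 0.09 ± 0.46 and 0.05 ± 0.32 in the same order, and for Q808 against Con. -0.30 ± 0.62 and -0.04 ± 0.70. The PTZ against Con. values moved with the library left out. Without Con.-1 they were -0.13 for *Lmo1* and 0.31 for *Lmo2*, and without PTZ-3 they were -0.11 and 0.077. Without Con.-3, PTZ was lower than Con. by the call rule for *Lmo1* (-0.89) and for *Lmo2* (-0.77). That fit keeps the striatum-high PTZ-3 with no striatum-high Con. library beside it. In limma without the 3 striatum-high libraries the values were -0.62 for *Lmo1* (adjusted p = 0.06536) and -0.61 for *Lmo2* (adjusted p = 0.1522), and both were called. In the striatum-high pair *Lmo2* was 0.97 higher in PTZ.

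*Lmo4* is part of the make-up of the LIM-only transcripts, so the values of this make-up are given without a test. *Lmo4* made up 51.2%, 53.2% and 49.8% of the summed FPKM of the 4 LIM-only genes in Con., 68.3%, 70.7% and 72.4% in PTZ, and 45.4% and 53.8% in Q808. The summed level of the other LIM-only genes was 58.5 to 80.7 FPKM in Con., 48.3 to 53.4 FPKM in PTZ, and 46.2 and 63.8 FPKM in Q808. The larger *Lmo4* share in PTZ than in Con. came with both more *Lmo4* and a lower sum of the others. The sum of all 4 was 117 to 166 FPKM in Con. and 165 to 178 FPKM in PTZ, which overlapped, and 84.5 and 138 FPKM in Q808. Each PTZ library, striatum-high or not, thus held a larger share of *Lmo4* than any Con. or Q808 library, and the sum was higher than in both Q808 libraries as well.

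**Figure D2:**
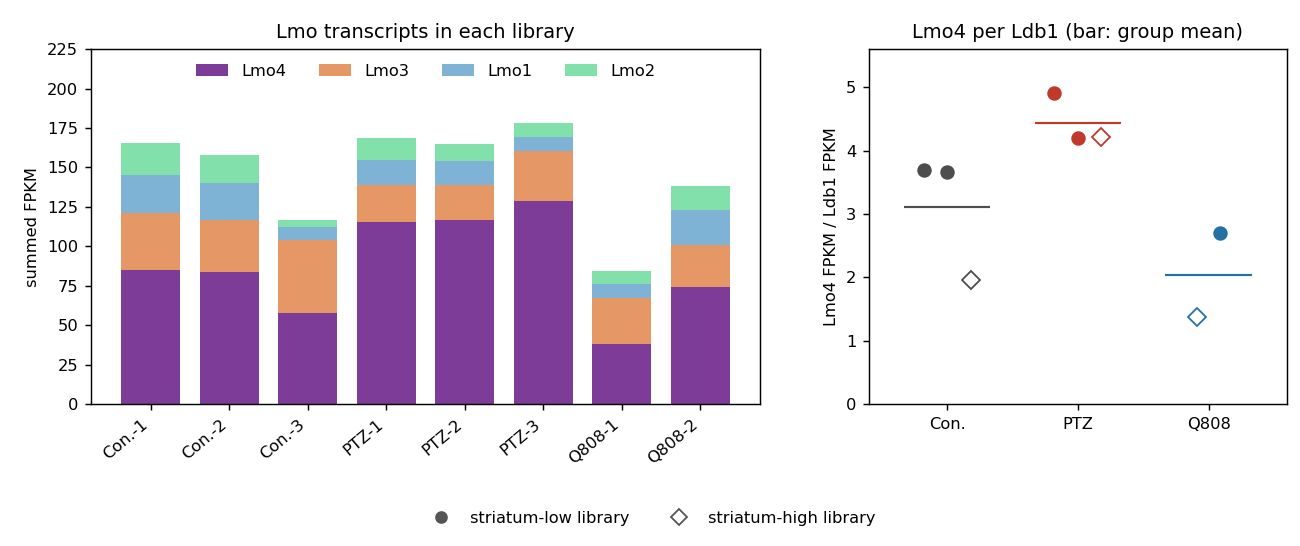
Left, the summed FPKM of *Lmo1* to *Lmo4* in each library as stacked bars from 0. Right, FPKM of *Lmo4* divided by FPKM of *Ldb1* in each library, with a bar at the group mean. *Lmo4* takes 68.3% to 72.4% of the bar in PTZ and 45.4% to 53.8% elsewhere, and the ratio to *Ldb1* is highest in the 3 PTZ libraries.

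The LIM domain-binding genes code for the partners that LMO proteins need. *Ldb1* was at 22.9, 23.0 and 29.7 FPKM in Con. (25.2 ± 3.89), 23.4, 27.8 and 30.6 FPKM in PTZ (27.3 ± 3.62), and 27.8 and 27.5 FPKM in Q808 (27.6 ± 0.167). Its groups overlapped in each comparison, and its differences of 0.12 ± 0.16, 0.03 ± 0.18 and 0.14 ± 0.17 for PTZ from Con., Q808 from PTZ and Q808 from Con. were within the spread between rats (limma, adjusted p = 0.9987, 0.9851 and 0.9025). *Lmo4* per *Ldb1* was 3.70, 3.66 and 1.95 in Con., 4.91, 4.19 and 4.21 in PTZ, and 1.38 and 2.70 in Q808. The PTZ libraries again lay above the others in this ratio, with *Lmo4* in its numerator.

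*Ldb2* was the relative with the lowest Q808 mean against PTZ. Its levels were 11.0, 15.1 and 14.7 FPKM in Con. (13.6 ± 2.27), 12.3, 16.0 and 21.6 FPKM in PTZ (16.7 ± 4.68), and 6.52 and 13.2 FPKM in Q808 (9.86 ± 4.72). Q808-1 lay below all other libraries and Q808-2 lay within the range of PTZ and of Con. The log2 difference of Q808 from PTZ was -0.80 ± 0.37 (0.575-fold, adjusted p = 0.9522 by limma), which was not called, and that from Con. was -0.53 ± 0.34 (adjusted p = 0.9006). PTZ differed from Con. by 0.27 ± 0.24 (adjusted p = 0.9987). The difference of Q808 from PTZ was -1.72 within the striatum-high libraries and -0.09 within the striatum-low ones. *Ldb2* passed both limits against PTZ without PTZ-1 (-1.0). Without Q808-2, which leaves a single Q808 library, Q808 differed by -1.30 from PTZ and by -1.03 from Con. Over the fits with each library left out, the difference ran from -1.30 to -0.30 against PTZ and from -1.03 to -0.03 against Con. *Ldb1* per *Ldb2* was 4.26 in Q808-1 and from 1.41 to 2.09 over the remaining 7 libraries.

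*Fhl2* had its highest levels in PTZ, the pattern for which it was chosen. The *Fhl1* means went the same way by smaller amounts, with groups that overlapped. *Fhl2* was at 5.18, 4.78 and 5.34 FPKM in Con. (5.10 ± 0.286), 9.58, 12.1 and 7.22 FPKM in PTZ (9.65 ± 2.47), and 4.85 and 5.94 FPKM in Q808 (5.39 ± 0.775). The PTZ libraries lay above all others, and the Con. and Q808 libraries overlapped. On the log2 scale the difference was 0.88 ± 0.22 for PTZ against Con., or 1.84-fold, -0.80 ± 0.28 for Q808 against PTZ, and 0.07 ± 0.19 for Q808 against Con. The lowest PTZ library was the striatum-high one, the opposite of *Lmo4*. Within the striatum-low libraries the PTZ difference was 1.10 and the Q808 difference from PTZ was -0.85, and within the striatum-high ones they were 0.43 and -0.56. Leaving out any 1 library gave between 0.70 and 1.07 for PTZ against Con. and between -0.99 and -0.62 for Q808 against PTZ. For *Fhl2* the paper's qRT-PCR went the same way as these FPKM. It reports a significant rise from Con. to PTZ and a marked fall after Q808.

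*Fhl1*, known best from muscle, was at 28.6, 28.2 and 21.7 FPKM in Con. (26.2 ± 3.85), 24.6, 28.7 and 34.5 FPKM in PTZ (29.3 ± 4.98), and 21.7 and 30.8 FPKM in Q808 (26.3 ± 6.50). The groups overlapped in every comparison, and the differences were 0.16 ± 0.18, -0.16 ± 0.23 and -0.01 ± 0.22 for PTZ from Con., Q808 from PTZ and Q808 from Con. (limma, adjusted p = 0.9987, 0.9522 and 0.9969). The direction turned between the library sets, since PTZ differed from Con. by -0.10 within the striatum-low and by 0.66 within the striatum-high libraries, and Q808 from PTZ by 0.21 and -0.67. In the striatum-high libraries these values were larger than those of *Fhl2*. *Fhl1* per *Fhl2* was 5.52, 5.90 and 4.07 in Con., 2.57, 2.36 and 4.78 in PTZ, and 4.47 and 5.19 in Q808. PTZ-1 and PTZ-2 had the lowest ratios, and PTZ-3 lay within the range of Con.

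**Figure D3:**
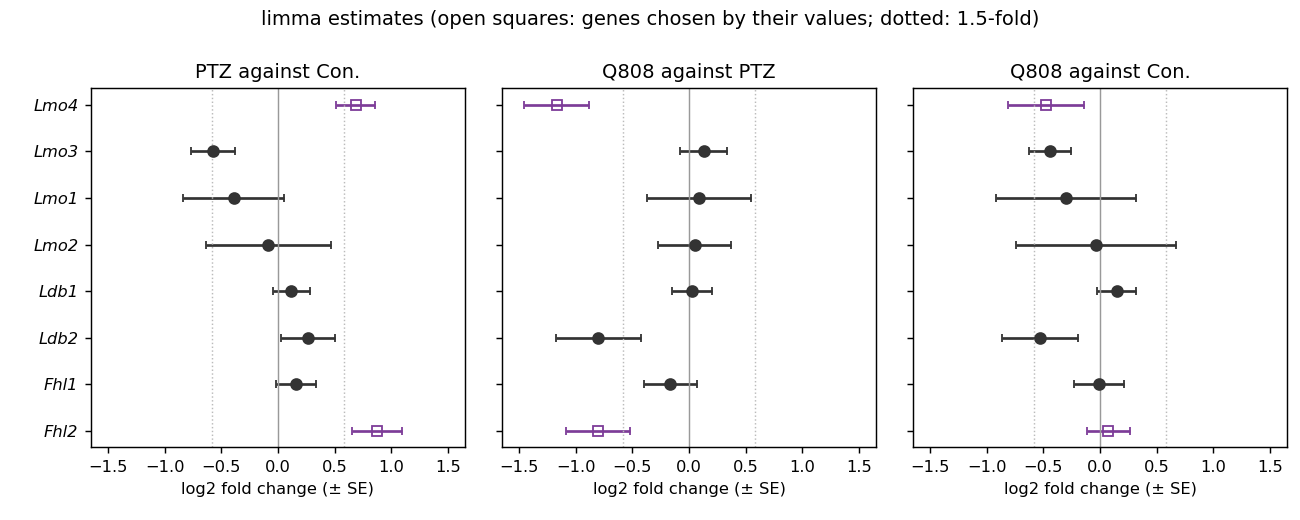
Log2 fold change of each gene with its standard error from limma in the 3 comparisons, on log2(FPKM + 0.1). Open squares are *Lmo4* and *Fhl2*, which were chosen by these values, and dotted lines stand at 1.5-fold, which none of the other 6 genes passes together with an unadjusted p under 0.05.

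Over the 6 relatives, none was called in any of the 3 comparisons, where a call needs an unadjusted limma p under 0.05 and more than 1.5-fold change. In PTZ against Con. 2.53% of all genes tested were called, 1.69% higher and 0.84% lower. For Q808 against PTZ it was 1.92% of all genes, 1.36% higher and 0.564% lower, and in Q808 against Con. 3.46%, 3.07% higher and 0.391% lower. With 6 genes and such shares, no call among the relatives is near the background. An unadjusted p under 0.05 was given by 1 of the 6 relatives in PTZ against Con., *Lmo3*, and by 0 in the others. After adjustment over all genes, 0, 0 and 1 genes of the 15593 passed 0.05, and 589, 341 and 667 had an unadjusted limma p under 0.05. Groups that did not overlap were found for *Lmo3* in PTZ against Con. (9.15% of all genes) and in Q808 against Con. (20% of all genes), and for no relative in Q808 against PTZ (15.6% of all genes). The median log2 change of the relatives was 0.02, 0.04 and -0.17 in the 3 comparisons, against -0.04, 0.10 and 0.04 over all genes. The balance of higher and lower calls over all genes depended on the scaling, since 70.7% of the calls were higher in Q808 against PTZ and 48.5% after quantile normalization, and 88.7% and 64.4% in Q808 against Con.

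The change of each relative between groups was also compared between striatum-high and striatum-low libraries. The difference between the sets in the PTZ against Con. change had an unadjusted limma p under 0.05 for *Lmo1*, *Lmo2* and *Fhl1*, 3 of the 6 relatives, as it had for 22.7% of all genes. For Q808 against PTZ it did for *Lmo1*, *Ldb2* and *Fhl1*, again 3 of 6, against 18.9% of all genes. No relative passed after adjustment over all genes, where the lowest adjusted p was 0.09007 for *Lmo2*. The sets were made from these same libraries, with 1 striatum-high library per group and 1 striatum-low Q808 library, so the spread comes from the striatum-low Con. and PTZ libraries alone and the p-values assume that the lone libraries vary like them. *Lmo3* and *Ldb1* had changes of PTZ against Con. that differed by 0.06 and -0.11 between the sets.

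**Figure D4:**
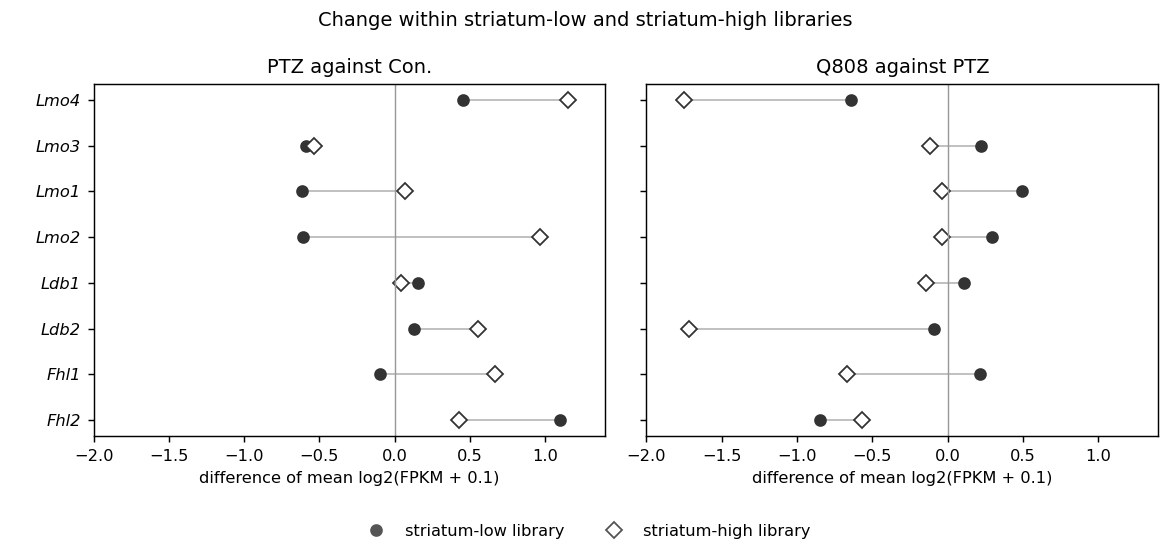
Difference of mean log2(FPKM + 0.1) for each gene within the striatum-low libraries (filled circles, 2 Con., 2 PTZ and 1 Q808) and within the striatum-high libraries (open diamonds, 1 of each group). *Lmo2* lies at -0.61 and 0.97 for PTZ against Con., and *Ldb2* at -0.09 and -1.72 for Q808 against PTZ, while *Lmo3* lies at -0.59 and -0.53.

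The partners of these proteins were read from lists made for this purpose. Of 12 LIM homeodomain factors, which share LDB proteins with LMO proteins, 7 were tested and none was called in any comparison, with median log2 changes of -0.10, -0.14 and 0.37 in the order of the comparisons above. *Lhx2*, the most abundant of them, was at 13.0 to 22.4 FPKM in the striatum-high and at 28.2 to 34.7 FPKM in the striatum-low libraries, as *Lmo1* and *Lmo2* were lower in the former. *Lhx6*, a factor of interneurons, was at 2.79 to 4.26 FPKM over all libraries. *Isl1*, named after its values were seen, was at 4.03 to 6.08 FPKM in the striatum-high libraries and at most 0.199 FPKM in the others. Of 18 partners of LMO and LDB complexes 15 were tested. *Cbfa2t3*, a corepressor found in such complexes, was lower in PTZ than in Con. by 0.60 ± 0.17 on the log2 scale (limma, adjusted p = 0.9987), at 8.64 to 11.6 FPKM in Con. and 5.88 to 6.96 FPKM in PTZ. It was the only call among the 15 there. Over all genes 0.84% were called lower in that comparison, and 9.15% had groups that did not overlap. *Gata2*, a GATA factor, was higher in Q808 than in Con. by 1.2 ± 0.27 (limma, adjusted p = 0.9006), and none of these partners was called in Q808 against PTZ. *Gata2* was the only call among the 15 in Q808 against Con. Over all genes 3.07% were called higher there, a direction that depended on the scaling as given above. The median log2 changes of the 15 were -0.04, 0.22 and 0.08.

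All 10 listed factors that FHL2 binds were tested, and their median log2 changes were 0.30, -0.16 and -0.03. *Crem*, a cAMP-responsive factor, was called higher in PTZ than in Con. (1.08 ± 0.42, limma, adjusted p = 0.9987) and higher in Q808 than in Con. (0.71 ± 0.22, limma, adjusted p = 0.9006). It was at 2.56, 2.37 and 2.85 FPKM in Con., 5.06, 10.7 and 3.21 FPKM in PTZ, and 4.81 and 3.85 FPKM in Q808. *Crem* had its highest value in PTZ-2 and its lowest PTZ value in PTZ-3, the same libraries as *Fhl2*, but unlike *Fhl2* it was above Con. in both Q808 libraries. *Fos*, named after its values were seen, was at 5.70, 7.71 and 22.4 FPKM in Con., 31.7, 150 and 12.5 FPKM in PTZ, and 28.7 and 21.5 FPKM in Q808, and it was not called (PTZ against Con. 1.96 ± 0.91, limma, adjusted p = 0.9987). Of 41 other LIM domain proteins 39 were tested. In PTZ against Con. 1 was called, *Limk1*, a kinase of the actin regulator cofilin, which was higher by 0.60 ± 0.20 (limma, adjusted p = 0.9987). Of all genes 1.69% were called higher there. In Q808 against Con. 5 were called, all higher, namely *Crip1*, *Lims2*, *Ajuba*, *Wtip* and the focal adhesion gene *Pxn*, by 0.59 to 0.92 (limma, adjusted p = 0.9006 for each), beside 3.07% of all genes called higher there, a direction that depended on the scaling as given above. None was called in Q808 against PTZ. The median log2 change of these 39 genes was 0.07 for PTZ from Con., 0.27 for Q808 from PTZ and 0.42 for Q808 from Con., against -0.04, 0.10 and 0.04 over all genes.

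Cell type markers were read in the same way. In Q808 against Con. 3 of 5 mural cell markers, 2 of 5 endothelial markers and 1 of 5 microglia markers were called higher. Each had an adjusted limma p of 0.9006. Of all genes 3.07% were called higher there, a direction that depended on the scaling as given above. The summed mural markers were at 64.9 to 79.3 FPKM in Con. and at 128 and 155 FPKM in Q808. In PTZ they were at 67.6, 55.8 and 151 FPKM, so PTZ-3 lay between the Q808 libraries. In the same comparison 1 of 6 pyramidal cell markers, *Pou3f1*, was called lower (limma, adjusted p = 0.9006), beside 0.391% of all genes. In PTZ against Con. 1 of 6 interneuron, 1 of 5 microglia and 1 of 5 endothelial markers were called higher. Each had an adjusted limma p of 0.9987, and 1.69% of all genes were called higher there. In Q808 against PTZ no marker was called. Of the choroid plexus markers *Otx2* was at 0 in all libraries, and the summed list ranged from 91.5 to 6413 FPKM, with Con.-1, Con.-2 and Q808-2 highest. Meningeal fibroblast markers had their highest sum, 145 FPKM, in Q808-2. Summed oligodendrocyte markers were highest in Q808-1 at 13758 FPKM, the library with the lowest *Lmo4* and *Ldb2*. Dentate granule cell, astrocyte, striatum and oligodendrocyte markers were called in no comparison. The part of these markers in the values of the LIM genes was not tested.

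The genes whose pattern was most like that of *Lmo4* and of *Fhl2* were different ones. They were ranked by Pearson's r over the 8 libraries on log2(FPKM + 0.1) among 12562 other genes with a mean of at least 1 FPKM, and the values share library, depth and group, so r is a description. For *Lmo4* they were *Vapa* (r = 0.964), *Hmces* (0.960), *Klc1* (0.960), *Rilpl2* (0.959) and *Tubb5* (0.954). *Vapa*, a membrane contact protein of the endoplasmic reticulum, was at 78.7 to 96.2 FPKM in Con., 96.9 to 105 FPKM in PTZ, and 72.7 and 91.7 FPKM in Q808. All 5 varied over a narrower range of log2 values than *Lmo4*. For *Fhl2* they were *Otud1* (0.977), *Itpkc* (0.976), *Ifrd1* (0.974), *Jund* (0.967) and *Prkar2a* (0.967). *Ifrd1* was at 25.2 to 31.1 FPKM in Con., at 78.5, 126 and 37.4 FPKM in PTZ, and at 30.5 and 36.9 FPKM in Q808, and *Jund*, a subunit of the AP-1 factor, was at 58.7 to 64.1 FPKM, at 125, 143 and 79.9 FPKM, and at 71.8 and 72.5 FPKM. All 5 genes like *Fhl2* had their highest value in PTZ-2 and their lowest PTZ value in PTZ-3, as *Fhl2* did, while *Lmo4* was highest in PTZ-3.

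**Figure D5:**
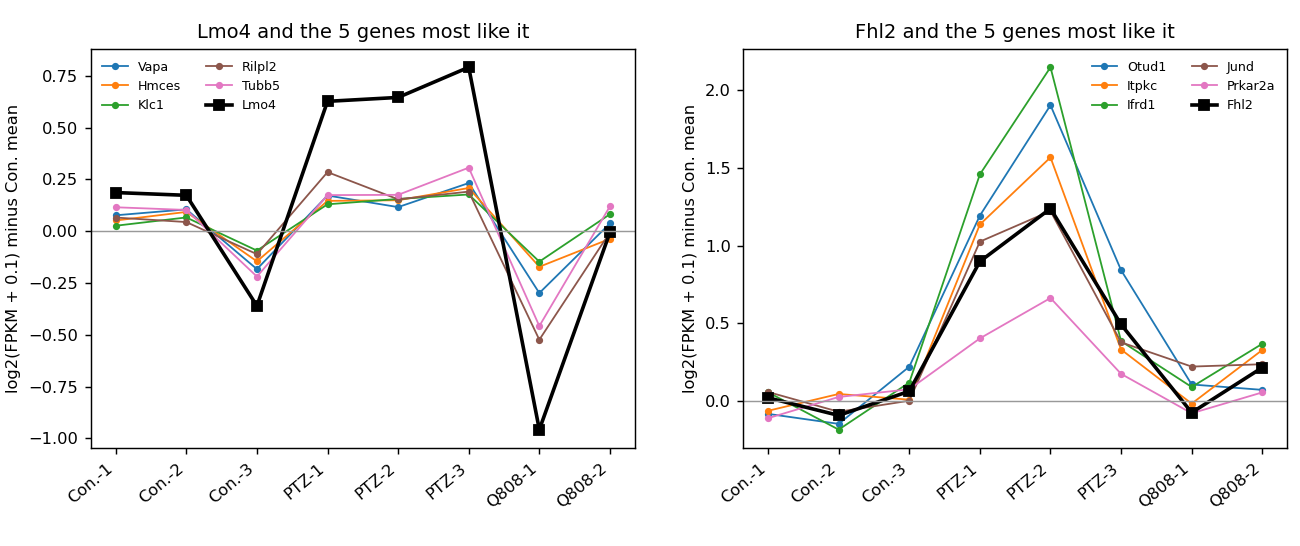
Log2(FPKM + 0.1) of *Lmo4* (left) and *Fhl2* (right) with the 5 genes of highest Pearson's r, each minus its own Con. mean, over the 8 libraries. Lines join the values of a gene and stand for no order of the libraries, and *Fhl2* and its 5 genes peak in PTZ-2 while *Lmo4* peaks in PTZ-3.

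In the gene annotation that came with the values, 6 of the 8 genes carried the term metal ion binding (all but *Ldb1* and *Ldb2*), as 6.78% of 19037 annotated genes did. The term nucleus was given to 6 genes, against 24.9% of annotated genes, and the term transcription factor complex to *Lmo2*, *Lmo4*, *Ldb1* and *Ldb2*, against 1.16%. The genes were chosen by family, and terms of this kind follow from the family, so these shares are background and not a result.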

How the data were processed

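The libraries of 8 rat hippocampi (3 Con., 3 PTZ and 2 Q808) were sequenced on a BGI T7 instrument. The authors used Trimmomatic to trim the reads and Cufflinks to compute the deposited FPKM per gene for 22601 genes. The submitters' processing notes also name HISAT2, Bowtie2, SAMtools, StringTie, HTSeq and DESeq without versions, and the genome build is not given in the sources used here. The deposited FPKM hold no read counts, so the number of reads behind each value is unknown and its precision is the spread between rats. Strand was not stated for the counting, so a gene and its antisense partner cannot be told apart.

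Symbols came from the RefSeq table of GRCr8 for 20633 genes, used for names, and promoter windows from the RefSeq promoter table. limma 3.58.1 in R 4.3.3 was fitted to log2(FPKM + 0.1) by empirical Bayes with a trend, separately for each pair of groups. It covered the 15593 genes that reached a mean of 0.1 FPKM. A fold change on this scale understates that of low genes. Calls required both an unadjusted p under 0.05 and a change above 1.5-fold, the limits of the study, and p-values adjusted by Benjamini-Hochberg over all genes are printed. The procedure was tested on simulated data. The study's test on counts was not repeated, and the counts were not used here.

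The members and lists were chosen with earlier results of these data known. Named genes were the 8 members, called genes of the partner lists (at most 6 per list, otherwise the 2 most abundant), and the 5 genes most like *Lmo4* and *Fhl2*. The split by striatum markers was made at the largest gap in their mean, and the test of the difference between the sets was added after the data were seen. Same-numbered libraries of Con. and PTZ deviated together over 12563 genes (r = 0.3089, 0.3919 and 0.472), which were taken as pairs by the numbers in the labels, though Con.-2 and PTZ-1 did so as well (0.4519). Q808-1 went against Con.-1 (-0.4628) and PTZ-1 (-0.4389) while Q808-2 went with Con.-2 (0.6612) and PTZ-2 (0.4157). With 2 libraries in that group their deviations mirror each other, so these values are not separate evidence. The signs in all 3 groups followed the striatum-high and striatum-low sets, so they do not show whether same-numbered libraries are pairs. With the replicate block 616 genes were called in PTZ against Con. instead of 395. The alternatives were other pseudocounts, other limits on low values, all groups in 1 fit, no trend in limma, median ratio scaling, quantile normalization, the replicate block, the striatum markers as a covariate, a 2-fold limit and leaving out libraries.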

Additional observations from a re-analysis of the deposited data

Results flagged for a closer look

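For 6 values of the relatives, the change between groups differed between the 3 striatum-high and the 5 striatum-low libraries at an unadjusted limma p under 0.05. In PTZ against Con. the change was higher in the striatum-high pair by 0.68 ± 0.18 on the log2 scale for *Lmo1* (limma, adjusted p = 0.137), by 1.57 ± 0.28 for *Lmo2* (limma, adjusted p = 0.09007) and by 0.76 ± 0.19 for *Fhl1* (limma, adjusted p = 0.1281). In Q808 against PTZ the change in the striatum-high pair minus that in the striatum-low libraries was -0.53 ± 0.20 for *Lmo1* (limma, adjusted p = 0.2417), -1.62 ± 0.38 for *Ldb2* (limma, adjusted p = 0.1447) and -0.89 ± 0.21 for *Fhl1* (limma, adjusted p = 0.1445). None passed adjustment over all genes, where 67 and 63 genes did. PTZ-3 enters all 6 values. The sets were made after the data were seen. The striatum-high set holds 1 library per group and the striatum-low set 1 Q808 library, so the spread comes from the striatum-low Con. and PTZ libraries alone, the lone libraries are assumed to vary like them, and the p-values carry little weight.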

How the results depend on the processing

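The counts of called genes moved most. In PTZ against Con. 395 genes were called, and 219 with a pseudocount of 1, 616 with the replicate block, 1530 without the 3 striatum-high libraries, 657 with the striatum covariate, 191 at 2-fold, and 249 to 1135 with each library left out. In Q808 against PTZ 300 were called, and 193 at a mean of at least 1 FPKM, 1894 with the replicate block, 1444 without the 3 libraries, 731 with the covariate, 183 at 2-fold, and 132 to 1569 with each library left out. In Q808 against Con. 540 were called, and 340 with a pseudocount of 1, 1076 with the replicate block, 936 with the covariate, 257 at 2-fold, and 279 to 1799 with each library left out. Of the 6 relatives 0 were called in PTZ against Con., and 3 without the 3 striatum-high libraries (*Lmo1*, *Lmo2* and *Lmo3*) and 0 to 2 with each library left out. In Q808 against PTZ 0 were called, and 1, *Ldb2*, with all 3 groups in 1 fit (-0.80), with median ratio scaling (-0.89) and with the covariate (-0.81), and 0 to 1 with each library left out, as in Q808 against Con. The replicate block changed no relative's call, and whether libraries pair by number could not be read from the data. The cause of these moves was not tested.

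Small changes turned their direction. Without the 3 libraries *Fhl1* was at -0.10 in PTZ against Con., 0.21 in Q808 against PTZ and 0.12 in Q808 against Con., and *Ldb2* at 0.036 in the last. In Q808 against PTZ, median ratio scaling gave *Lmo1* -0.0033, *Lmo2* -0.044 and *Ldb1* -0.066, the replicate block gave *Lmo1* -0.19 and *Lmo2* -0.11, quantile normalization gave *Lmo2* -0.019, and the covariate gave *Ldb1* -0.0059. In Q808 against Con., *Lmo2* was at 0.0075 with the covariate and *Fhl1* at 0.028 with quantile normalization. Leaving out each library gave *Lmo2* -0.77 to 0.31 in PTZ against Con. In Q808 against PTZ it gave *Lmo1* -0.59 to 0.77, *Lmo2* -0.36 to 0.45, *Ldb1* -0.078 to 0.11 and *Fhl1* -0.42 to 0.090, and in Q808 against Con. *Lmo1* -0.98 to 0.38, *Lmo2* -0.72 to 0.37 and *Fhl1* -0.26 to 0.25. Values of the 6 relatives kept direction and side of the limits in 179 cases, turned in 13 and gained a call in 6, and with each library left out in 72, 16 and 8. *Lmo4* and *Fhl2* have no test and are not among these. As a description, the *Lmo4* difference in PTZ against Con. was under 1.5-fold without Con.-3 (0.51) and without the 3 striatum-high libraries (0.46). In Q808 against Con. it was -0.96 without Q808-2. The *Fhl2* difference in Q808 against PTZ was between -0.99 and -0.62 with each library left out. The paper gives the amount of clean sequence per sample, which was not used here. The reads behind each FPKM value are unknown, so what depth limits could not be stated.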
